A study of Mus musculus with 20 samples.

Results

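The nuclear genes for the subunits of the mitochondrial respiratory chain were followed after knockdown of HuR, an RNA-binding protein (gene ELAVL1 in human, Elavl1 in mouse), in human hepatocytes living in mouse livers and in ordinary mouse livers. Members were the protein-coding genes whose names begin with NDUFA, NDUFB, NDUFC, NDUFS or NDUFV and a digit, SDHA to SDHD, UQCR, COX4 to COX8 followed by A, B, C or I, or ATP5. This rule found 175 of the 115942 genes listed in both tables, 89 among 60607 human genes and 86 among 55335 mouse genes. By complex, the human list held 39 genes for complex I, 4 for II, 9 for III, 17 for IV and 20 for V, and the mouse list held 38, 4, 8, 18 and 18. A mean of at least 1 TPM (reads divided by gene length and scaled to 1000000 per library) let 74 human and 80 mouse members into the tests.

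The 20 livers formed 4 groups. Humanized livers came from TK-NOG mice, severely immune-deficient animals that carry a herpes virus thymidine kinase transgene under a mouse albumin promoter. Ganciclovir at 25 mg/kg, given at 8 to 9 weeks of age, removed host hepatocytes, and 1000000 cryopreserved primary human hepatocytes were then transplanted through the spleen. The animals were used after 8 to 12 weeks when serum human albumin exceeded 0.5 mg/ml, and their table lists human genes only. Whether reads of host cells were counted on human genes was not tested. WT livers came from male C57BL/6 mice, which, per the methods, were 8 weeks old when bought and had 10 to 14 days to acclimatize. All 20 animals received adenovirus by vein, carrying either an shRNA against HuR (HuR KD, n = 4 humanized and n = 6 WT) or the LacZ control (n = 4 and n = 6), and livers were taken on day 7 after 4 h of fasting. The human and the mouse HuR shRNA have different sequences, the humanized animals were older, and read length differed between the sets. Species, host strain, age, read length and shRNA therefore cannot be told apart when the 2 models are compared. In bulk liver, a lower level can stand for fewer cells of a type or for less RNA per cell, which cannot be told apart either.

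The respiratory chain passes electrons from NADH and succinate to oxygen and uses the energy to pump protons across the inner mitochondrial membrane. Complex I oxidises NADH, complex II is succinate dehydrogenase, complex III hands electrons to cytochrome c, complex IV is cytochrome c oxidase and complex V is the ATP synthase. Most subunits are encoded in the nucleus, while a small core of complexes I, III, IV and V is encoded by mitochondrial DNA. Complex II is wholly nuclear. Hepatocytes depend on this machinery for gluconeogenesis, urea synthesis and fatty acid oxidation. Mouse promoters of these genes were searched for a few short elements. Those that held the palindromic core of the nuclear respiratory factor 1 (NRF1) site, CGCATGCG, are shown here. They were chosen because NRF1 is a known activator of many nuclear respiratory genes. Of the 80 mouse members tested, 65 had an entry in the RefSeq promoter table (GRCm38.p6, 250 bases before to 50 bases after the start), and 9 of these 65 genes (13.8%) held the core, against 4.41% of 9011 tested protein-coding genes with an entry. A search of both strands for an ETS core, CCGGAAGT, found 5 members (7.69% against 9.39%). The same search for a YY1 core, AAGATGGC, found 9 members (13.8% against 5.44%). Any of the NRF1, ETS or YY1 cores was found in 21 of the 65 members (32.3% against 17.9%), so most members held none. The windows around the NRF1 core, in capitals, read on the strand of each gene:

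Ndufa8, chr2:36049320-36049367, minus strand: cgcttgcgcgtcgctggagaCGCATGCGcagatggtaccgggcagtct
Ndufa11, chr17:56717683-56717730, plus strand: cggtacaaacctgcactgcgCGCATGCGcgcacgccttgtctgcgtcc
Uqcrc1, chr9:108936659-108936697, plus strand: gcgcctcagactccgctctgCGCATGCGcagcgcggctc
Uqcr11, chr10:80406799-80406846, minus strand: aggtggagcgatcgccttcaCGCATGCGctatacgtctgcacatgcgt
Cox6a1, chr5:115349092-115349139, minus strand: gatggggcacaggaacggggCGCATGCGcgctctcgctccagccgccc
Atp5g2, chr15:102671061-102671108, minus strand: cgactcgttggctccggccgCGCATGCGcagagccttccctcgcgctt
Atp5j, chr16:84835096-84835143, minus strand: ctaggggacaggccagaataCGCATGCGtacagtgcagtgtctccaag
Atp5k, chr5:108434421-108434468, minus strand: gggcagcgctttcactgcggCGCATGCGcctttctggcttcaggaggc
Atp5l, chr9:44920956-44920992, minus strand: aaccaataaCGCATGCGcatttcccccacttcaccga

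These 9 genes belong to complexes I, III, IV and V. The core stood at the start site in Uqcr11, where it began 5 bases before the start, and in Ndufa8, where it began 9 bases before it. A match is a run of letters and not a measured site.

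Whole reads recovered from the steps of the TPM values gave 2670469 to 20302454 reads per library in the humanized livers and 1423985 to 44668272 in the WT livers. In the humanized set, HuR KD liver 4 and LacZ liver 2, the deepest libraries, resembled each other (Pearson's r across genes of log2(TPM + 1), 0.965) more than any other pair, whose highest r was 0.931. Mitochondrial rRNA made up 49.1% of TPM in each of these 2 livers and 27.2% to 36.0% in the other humanized livers. It was listed at 0 in WT livers. A larger share leaves less of the fixed TPM total to other genes, and its part in the results was not tested. In the WT set, LacZ liver 2 (the shallowest library) had no r above 0.929 with any other library and HuR KD liver 6 (12960373 reads) none above 0.961, while each of the other 10 libraries had at least one r of 0.986 or more. Results are therefore given with these 4 livers and, where the value moved, without them. Hepatocyte markers were abundant in both sets, with none of 8 human and none of 6 mouse markers called between groups, and T and NK cell markers were at 0 in every humanized library. In WT livers 4 of 6 macrophage markers were lower after knockdown, with summed levels of 243 to 425 TPM in HuR KD livers and 352 to 483 TPM in LacZ livers, and the part of this in the results was not tested. In the humanized table the 6 macrophage markers summed to at most 4.83 TPM, with CLEC4F and MARCO at 0, and 1 of 3 cholangiocyte markers tested was lower, with summed levels of 4.71 to 26.8 TPM in HuR KD and 10.1 to 34.9 TPM in LacZ livers. The part of this in the results was not tested either.

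HuR mRNA was lower in every knockdown liver than in every control. In humanized livers ELAVL1 stood at 2.37 to 4.05 TPM in HuR KD and 4.77 to 6.17 TPM in LacZ, 61% of the control mean (log2 fold change -0.59 ± 0.17 SE, limma adjusted p = 0.214). In WT livers Elavl1 stood at 3.72 to 5.62 TPM against 8.58 to 10.7 TPM, 51.7% of the control mean (log2 fold change -0.83 ± 0.09, adjusted p = 0.00105).

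In LacZ livers the members spanned a wide range of levels, and the order within a complex differed between the tables. In humanized livers the highest members by mean TPM were NDUFA1 in complex I (206 ± 36.8 SD), SDHB in II (101 ± 7.86), UQCRQ in III (149 ± 21.6), COX8A in IV (169 ± 17.5) and ATP5F1B in V (278 ± 43.4, n = 4 each). The lowest of those tested were NDUFA9 (2.27 ± 0.142), SDHC (6.49 ± 1.27), UQCRC2 (2.92 ± 1.13), COX6A2 (2.90 ± 1.15) and ATP5MG (12.9 ± 0.769). ATP5F1B is the catalytic beta subunit of the ATP synthase, NDUFA9 an accessory subunit of complex I and UQCRC2 a core protein of complex III. In WT livers the highest were Ndufa4 (413 ± 19.96), Sdhd (488 ± 35.3), Uqcr11 (449 ± 67.2), Cox6a1 (754 ± 128) and Atp5a1 (852 ± 39.3), and the lowest were Ndufa4l2 (1.70 ± 0.795), Sdhc (107 ± 4.66), Uqcrc1 (119 ± 8.44), Cox6b2 (3.95 ± 0.949) and Atp5l (19.3 ± 0.907, n = 6 each). Neighbours in these orders often did not differ beyond their spread, as with Uqcr11 and the next member of complex III, Uqcr10, at 384 TPM. In mouse, complexes III and II were the most even, with ratios of 3.77 and 4.54 between the highest and lowest member tested, where the human ratios were 51.0 and 15.5. The human ratio for complex III rests on UQCRC2, at 3 to 275 reads per library. Over 71 human and mouse pairs tested in both sets, the mean log2 levels in human and mouse LacZ livers correlated weakly (Pearson 0.329, Spearman 0.345). This is a description across genes, which share the libraries of each table. Whether shared reads lowered some human levels could not be examined, so the human orders, ratios and this correlation are uncertain.

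Several human members were listed at or near 0, among them core subunits of complex I. Reads shared with gene copies or between the 2 species could not be examined in these tables. A value at or near 0 here therefore does not show that a gene was silent. NDUFA6 and ATP5IF1, the inhibitor of the ATP synthase, were at 0 in all 8 humanized livers. NDUFS3, a core subunit of complex I, was at 0 in 7 livers and at 0.0247 TPM in HuR KD liver 4, and NDUFS1, the largest core subunit, stood at 0.106 to 0.275 TPM. NDUFA3 reached at most 0.546 TPM and NDUFA7 at most 1.18 TPM. The mouse counterparts of these 5 complex I genes were among the abundant mRNAs of WT liver, between the 88.8 percentile (Ndufs1) and the 95.8 percentile (Ndufa6) of genes tested by mean LacZ level. In all, 15 human members fell under the filter, and 6 of them entered a fit without the filter, where none was called. Apart from the 6 genes named above, the 15 were the tissue isoforms COX4I2, COX6B2, COX7A1, COX7B2 and COX8C (all at 0), NDUFA4L2 (up to 0.874 TPM), ATP5MGL (up to 1.21 TPM) and the read-through genes NDUFC2-KCTD14 and ATP5MF-PTCD1 (both at 0). In mouse only 6 members were left out, namely Cox4i2, Cox6a2, Cox7b2, Cox8b, Cox8c and a same-named copy of Atp5o listed at 0.

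Among tissue isoforms of cytochrome c oxidase, the liver-type genes dominated in both sets. In WT LacZ livers Cox6a1 averaged 754 TPM and its heart and muscle relative Cox6a2 0.334 TPM. Cox7a2 averaged 321 TPM and the muscle isoform Cox7a1 4.04 TPM. In humanized livers COX6A1 averaged 86.0 TPM, beside 31.2 to 50.2 TPM listed for its 2 pseudogenes. COX6A2 averaged 2.90 TPM, a low value that rests on 1 to 19 reads per library. The 7 striated muscle markers together reached at most 0.820 TPM in any library, with CKM and TNNT3 at 0. NDUFA4, first described with complex I and now placed in complex IV, is kept with the NDUF genes here, at 59.7 ± 4.22 TPM in humanized and 413 ± 19.96 TPM in WT LacZ livers.

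After HuR knockdown the humanized livers showed lower mRNA for 5 members and higher mRNA for none, at an unadjusted limma p under 0.05. The 5 were COX8A and COX6B1 of complex IV, NDUFS5 of complex I and ATP5MF and ATP5MC3 of complex V. They made up 6.76% of the 74 members tested, below the 11.5% of 12738 genes called in the same fit (3.6% higher and 7.87% lower), so the share of members called was no larger than among all genes. No member passed an adjusted p of 0.05, which 0.212% of all genes did. With a term for the 2 alike livers 2 members passed it, COX8A and COX6B1 (adjusted p = 0.0495 each), which was 2.70% of members against 0.997% of all genes. With median-of-ratios scaling 2 members were higher and 4 lower (background 6.21% and 6.88%), and without HuR KD liver 4 and LacZ liver 2 the fit called 1 higher and 5 lower (background 4.57% and 11.2%).

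COX8A (ENSG00000176340.4), a small membrane subunit of cytochrome c oxidase, read 175, 190, 160 and 150 TPM in the 4 LacZ livers and 105, 61.8, 77.8 and 118 TPM in the 4 HuR KD livers. The groups did not overlap (exact permutation p = 0.0286, two-sided, the smallest that 4 against 4 livers allow). HuR KD livers averaged 53.6% of the control (log2 fold change -0.93 ± 0.21 SE, adjusted p = 0.111). COX6B1 (ENSG00000126267.11), which lies at the face of the enzyme toward the intermembrane space, read 78.3, 88.1, 78.6 and 78.4 TPM in LacZ and 26.7, 40.7, 42.6 and 60.3 TPM in HuR KD livers. All knockdown livers again lay below all controls, at 52.7% of the mean (-0.96 ± 0.22, adjusted p = 0.121). The human table also lists 7 processed pseudogenes of COX6B1, whose summed level was 0 to 2.26 TPM in LacZ and 3.97 to 9.50 TPM in HuR KD livers, opposite to the parent gene and smaller than its fall. How reads were shared between these copies was not tested.

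NDUFS5 (ENSG00000168653.11), an accessory subunit of complex I, read 143, 161, 138 and 178 TPM in LacZ and 81.9, 80.5, 96.5 and 127 TPM in HuR KD livers. It fell to 62.4% of the control mean with no overlap (-0.69 ± 0.17, adjusted p = 0.154). ATP5MF (ENSG00000241468.7), a membrane subunit of the ATP synthase, read 15.7, 20.8, 20.9 and 24.3 TPM in LacZ and 13.2, 10.01, 13.7 and 12.9 TPM in HuR KD livers, 61.0% of the mean (-0.66 ± 0.17, adjusted p = 0.149). ATP5MC3, 1 of 3 genes for the membrane-ring subunit c, averaged 31.3 ± 2.32 TPM in LacZ and 24.7 ± 4.37 TPM in HuR KD livers (-0.35 ± 0.15, adjusted p = 0.424). Its groups overlapped, and it lost the call without any 1 of 6 of the 8 livers. A 5th member whose groups did not overlap was ATP5MC2, named after its values were seen, at a log2 fold change of -0.22 ± 0.13 (adjusted p = 0.582). Members with every knockdown liver below every control were thus 5 of 74 (6.76%), against 5.03% of all genes. Leaving out HuR KD liver 4 and LacZ liver 2 gave log2 fold changes of -1.01 for COX8A, -1.11 for COX6B1, -0.81 for NDUFS5 and -0.67 for ATP5MF, and all 4 stayed called in each fit that left out 1 liver.

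**Figure D1:**
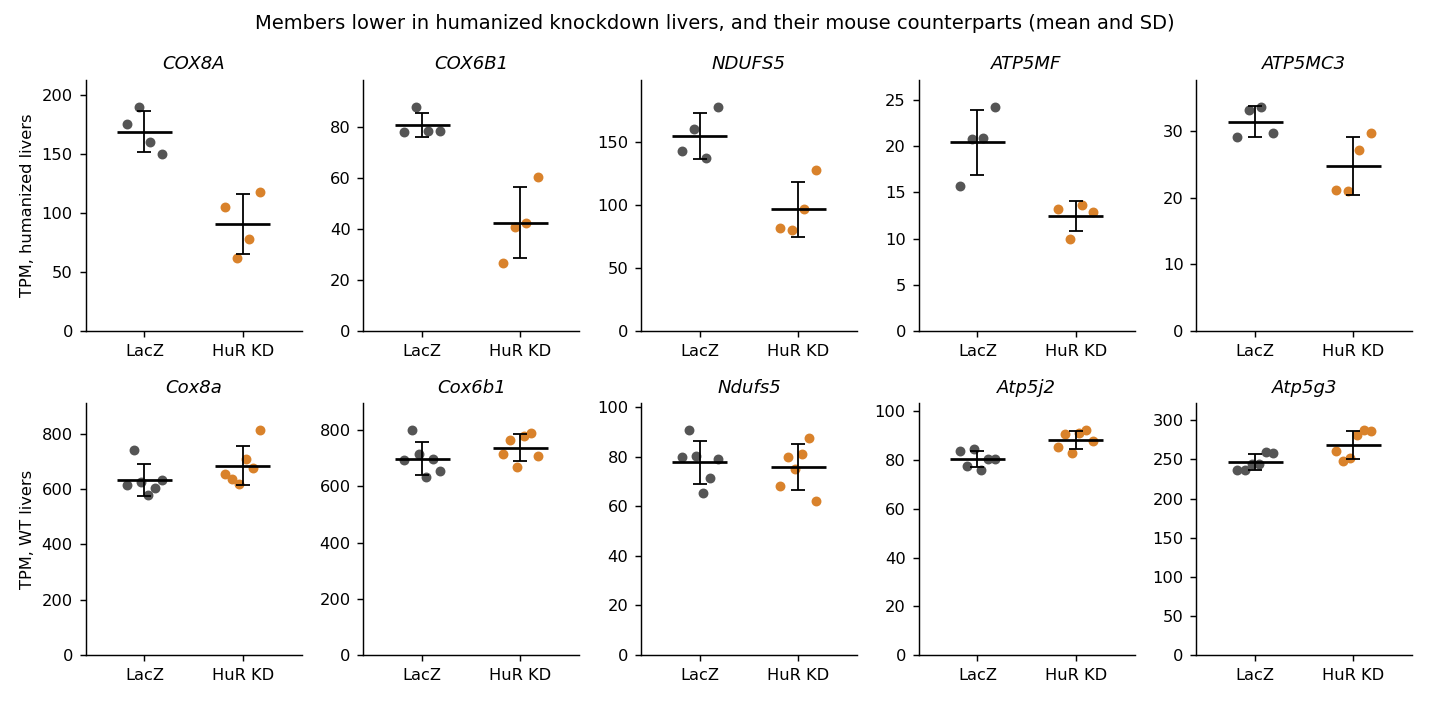
TPM in every liver (points) with the group mean and SD (bars) for the 5 human members lower after HuR knockdown (top, n = 4 livers a group) and their mouse counterparts (bottom, n = 6 a group). COX8A, COX6B1, NDUFS5 and ATP5MF do not overlap between groups in humanized livers, while Cox8a, Cox6b1 and Ndufs5 do in WT livers.

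The other 69 human members tested were not called, and they lay on both sides of 0. The complex medians of the log2 fold change were 0.00 for I, -0.02 for II, 0.04 for III, -0.08 for IV and -0.02 for V, beside -0.05 for all genes tested. Of the 74, 37 were positive and 37 negative, beside 5440 positive of all 12738 genes. With median-of-ratios scaling 48 members were positive, where the median of all genes was 0.01. In complex II, SDHA averaged 8.28 ± 1.78 TPM in HuR KD and 8.22 ± 1.42 TPM in LacZ livers, with a 95% interval of the log2 fold change from -0.41 to 0.42. SDHB averaged 106 ± 5.55 against 101 ± 7.86 TPM, SDHC 6.26 ± 1.24 against 6.49 ± 1.27 TPM and SDHD 63.1 ± 6.65 against 64.5 ± 6.07 TPM. Differences of these sizes were within the spread of the livers. Complex III had no call, with UQCRQ, the highest member, at 149 ± 21.6 TPM in LacZ and 119 ± 25.5 TPM in HuR KD livers (adjusted p = 0.527), and UQCRC2 between 0.419 and 5.403 TPM in HuR KD livers. UQCRH and UQCRHL are near-identical copies, so their separate levels are uncertain. The member nearest to a call in the other direction was NDUFA2 of complex I, named after its values were seen, at 28.2 TPM in HuR KD and 20.6 TPM in LacZ livers (0.49 ± 0.22, adjusted p = 0.436).

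In WT livers most members that were called were higher after knockdown, and 22 rose and 3 fell at the same threshold. These 25 were 31.2% of the 80 members tested, against 16% of 15090 genes, and the 22 that rose were 27.5% of members, against 9.09% of all genes. The 3 that fell were 3.75%, against 6.94%. Changes were small, and the members that rose lay between 0.11 (Cox7a2) and 0.29 (Ndufa8) on the log2 scale. After adjustment over all genes 1 member passed, Ndufa5, where 0.888% of all genes did. Without LacZ liver 2 and HuR KD liver 6, 6 members passed (7.5%, against 5.24% of all genes), namely Ndufa5 (adjusted p = 0.0270), Ndufa8 (adjusted p = 0.0330), Sdhc, Uqcrc2 (adjusted p = 0.0439) and, named after their values were seen, Atp5g2 and Ndufs7. By complex, 10 of 38 rose in I, 2 of 4 in II, 3 of 8 in III, 2 of 13 in IV and 5 of 17 in V, and the medians were 0.11, 0.18, 0.17, 0.08 and 0.13, beside 0.03 for all genes. In all, 66 of the 80 members were positive, beside 8568 of all 15090 genes. The count that rose was 12 with median-of-ratios scaling (15%, background 7.83%) and 36 with liver weights (45%, background 18.9%), it was 14 without HuR KD liver 4 or without HuR KD liver 5, and without LacZ liver 2 and HuR KD liver 6 31 rose and 2 fell (background 15.4% and 7.79%).

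**Figure D2:**
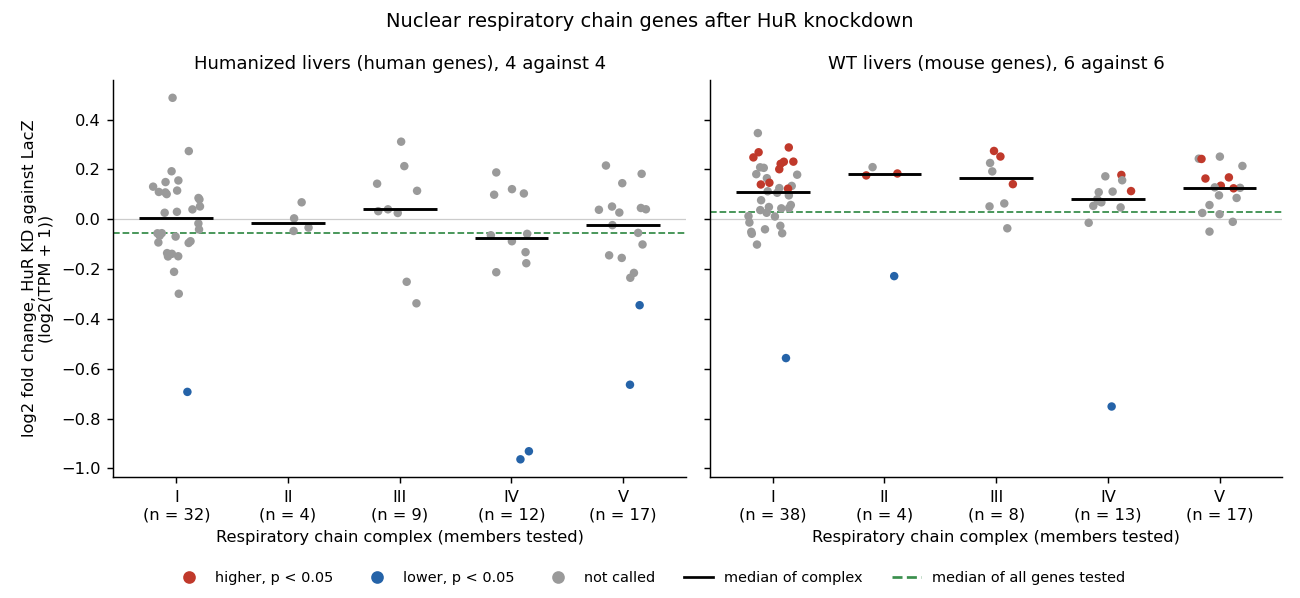
Log2 fold change of each member tested, HuR KD against LacZ, by complex in humanized (left) and WT livers (right), with red for higher, blue for lower and grey for not called at p under 0.05. Black lines are complex medians and the dashed green line is the median of all genes tested, -0.05 in humanized and 0.03 in WT livers.

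In complex I, Ndufa5 (ENSMUSG00000023089.12, chr6:24518666-24528013, minus strand), an accessory subunit of the arm that reaches into the matrix, ranged from 90.8 to 100.3 TPM with a median of 96.8 in LacZ livers and from 107 to 126 TPM with a median of 119 in HuR KD livers. The groups did not overlap (0.27 ± 0.05, adjusted p = 0.0433). Ndufa8 (chr2:36036326-36049406, minus strand), an accessory subunit held together by disulphide bonds, ranged from 132 to 160 TPM with a median of 137 in LacZ and from 154 to 180 TPM with a median of 175 in HuR KD livers (0.29 ± 0.06, adjusted p = 0.0503). Only LacZ liver 5, at 160 TPM, lay above the lowest knockdown liver. The 1 complex I gene that fell was Ndufa4l2, an isoform of Ndufa4 induced by low oxygen, at 1.03 to 3.10 TPM in LacZ and 0.360 to 1.20 TPM in HuR KD livers (-0.56 ± 0.19, adjusted p = 0.18), near the limit of the TPM filter. Ndufa4 itself, 424 ± 16.99 against 413 ± 19.96 TPM, was not called.

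Complex II moved in both directions. Sdhc (chr1:171127165-171150603, minus strand), which anchors the enzyme in the membrane, ranged from 98.5 to 111 TPM with a median of 109 in LacZ and from 83.8 to 102 TPM with a median of 91.1 in HuR KD livers (-0.23 ± 0.06, adjusted p = 0.0819). Only LacZ liver 4 and HuR KD liver 6 crossed, and the other 5 of each group did not overlap. Its partner in the membrane, Sdhd, ranged from 435 to 539 TPM in LacZ and from 496 to 642 TPM in HuR KD livers (0.18 ± 0.08, adjusted p = 0.3). The iron-sulphur subunit Sdhb rose as well, from a median of 188 to 213 TPM (0.18 ± 0.07, adjusted p = 0.212), and the flavoprotein Sdha, at medians of 243 and 262 TPM, was not called (0.21 ± 0.10, adjusted p = 0.331). Without the 2 livers that stood apart, Sdhc was at -0.26 (adjusted p = 0.0246) and Sdhd at 0.10 (adjusted p = 0.406), which ended the call of Sdhd.

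In complex III the core proteins rose. Uqcrc2 ranged from 183 to 240 TPM with a median of 236 in LacZ and from 246 to 296 TPM with a median of 267 in HuR KD livers, with no overlap (0.25 ± 0.08, adjusted p = 0.134). Uqcrc1, its partner core protein, ranged from 108 to 130 TPM in LacZ and from 124 to 206 TPM in HuR KD livers (0.27 ± 0.11, adjusted p = 0.235). Its highest value came from HuR KD liver 6, and without that liver and LacZ liver 2 the difference was 0.20 (adjusted p = 0.063). The members whose knockdown livers all lay above all controls were 3 of 80 (3.75%), against 1.25% of all genes. They were Ndufa5, Uqcrc2 and, named after its values were seen, Ndufc1 (0.23 ± 0.10, adjusted p = 0.263).

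In complex IV, Cox7a2l, a subunit-like relative of Cox7a2, ranged from 114 to 134 TPM with a median of 124 in LacZ and from 126 to 156 TPM with a median of 138 in HuR KD livers (0.18 ± 0.06, adjusted p = 0.181). Cox7a2 went from a median of 320 to 345 TPM (0.11 ± 0.05, adjusted p = 0.298). The muscle isoform Cox7a1 fell, from 1.98 to 9.51 TPM in LacZ to 0.351 to 3.03 TPM in HuR KD livers (-0.75 ± 0.32, adjusted p = 0.267), but its highest control was LacZ liver 2. Without that liver and HuR KD liver 6 it was at -0.31 (adjusted p = 0.322) and the call was lost. Cox4i1, at 535 ± 114 against 470 ± 56.9 TPM, and Cox8a, at 684 ± 70.04 against 633 ± 56.8 TPM, were not called. Without LacZ liver 2 and HuR KD liver 6, Cox4i1 was called at a log2 fold change of 0.13 (adjusted p = 0.158).

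In complex V, Atp5f1, the b subunit of the peripheral stalk, ranged from 148 to 168 TPM with a median of 160 in LacZ and from 165 to 189 TPM with a median of 180 in HuR KD livers (0.16 ± 0.05, adjusted p = 0.157). Atp5j2, the mouse counterpart of ATP5MF, went from 75.9 to 84.6 TPM up to 82.8 to 92.2 TPM (0.13 ± 0.05, adjusted p = 0.197). The 5 that rose also held the subunit c gene Atp5g3 and, named after their values were seen, the catalytic Atp5b (0.17 ± 0.07) and the subunit c gene Atp5g1 (0.24 ± 0.09). Atp5g3 averaged 269 ± 18.04 TPM in HuR KD and 246 ± 10.1 TPM in LacZ livers (0.12 ± 0.06, adjusted p = 0.308). Without the 2 livers that stood apart, Atp5g3 was at 0.09 (adjusted p = 0.332) and lost its call. Atp5a1, the most abundant member, was not called at 937 ± 143 against 852 ± 39.3 TPM.

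**Figure D3:**
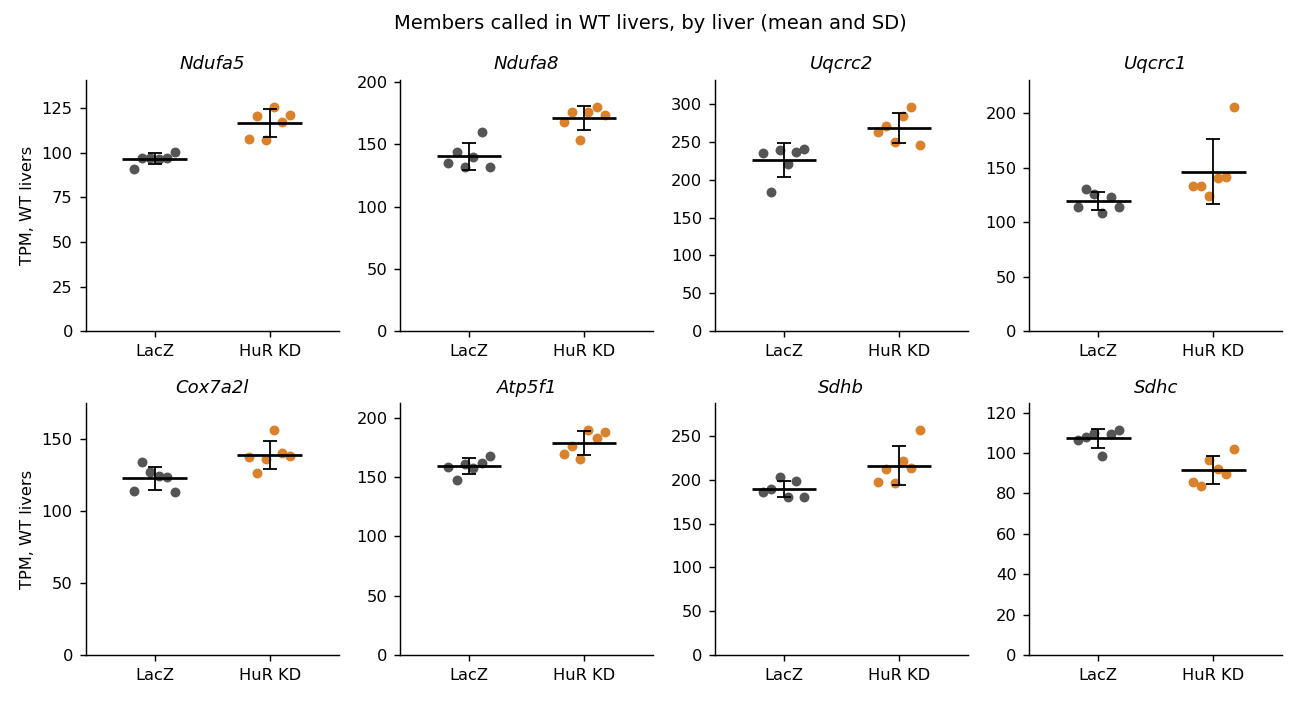
TPM in each WT liver (points) with the group mean and SD (bars) for 8 members called between HuR KD and LacZ (n = 6 each). Ndufa5 and Uqcrc2 do not overlap between groups, and Sdhc is the only one of the 8 that fell.

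Taking the members of a complex together liver by liver, complexes III and V were the most evenly shifted in WT livers. The mean centred level (log2(TPM + 1)) of complex III was above every LacZ liver in 5 of 6 HuR KD livers, with group means of 0.07 and -0.07 and a spread between livers of 0.06 (SD). For complex V it was also 5 of 6, with means of 0.06 and -0.06. For complex IV it was 0 of 6, since LacZ liver 2 lay highest at 0.18. In humanized livers 2 HuR KD livers lay above all controls and 2 below them in each of complexes I, II and III. Those above were HuR KD livers 3 and 4 (8342241 and 20302454 reads), and those below were HuR KD livers 1 and 2 (2670469 and 3171015 reads). LacZ liver 4, with 3169425 reads, was not the lowest control in these complexes. The part of depth in this was not tested. In complex V 1 lay above and 2 below, and in complex IV 0 lay above and 2 below. These levels are a description over the members and carry no test.

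**Figure D4:**
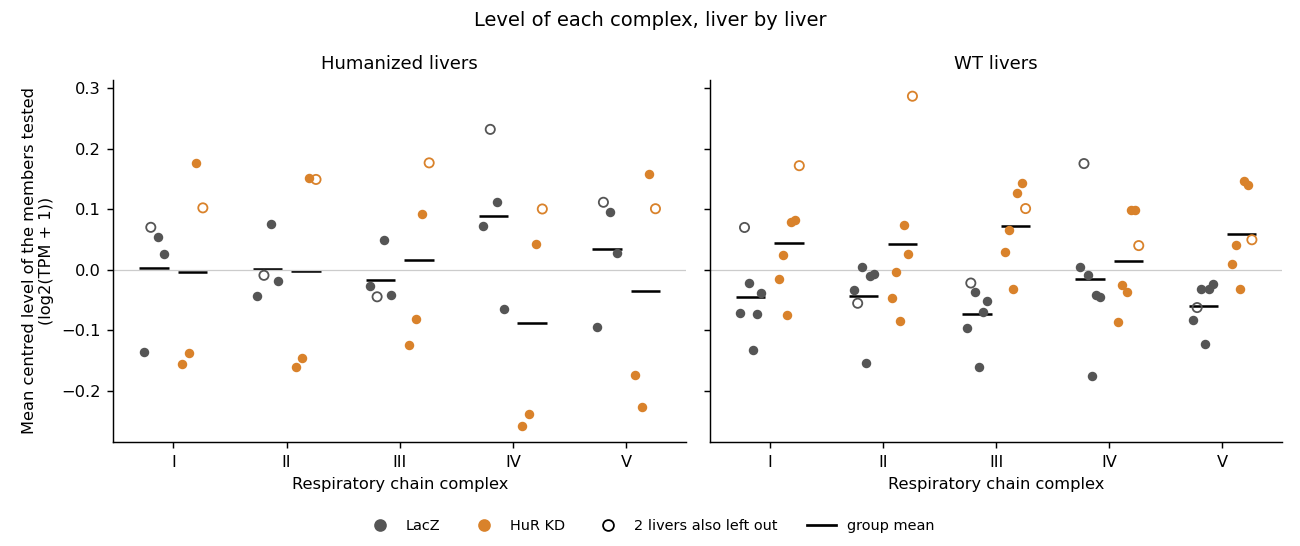
Mean centred level of the members tested in each complex (log2(TPM + 1)), one point a liver, in humanized (left, n = 4 a group) and WT livers (right, n = 6 a group), with lines at group means. Open points are the 4 livers also left out, and in humanized livers the HuR KD points spread above and below the controls in complexes I to III.

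The difference between the 2 models was fitted over 8211 human and mouse gene pairs, of which 71 were members. This fit took 1 spread per gene over all 20 livers, although humanized and WT livers can differ in spread. For COX8A the SE of the difference, 0.198, was thereby below the 0.206 of its humanized effect alone. A difference at an unadjusted p under 0.05 was found for 10 of the 71 pairs (14.1%), against 19.7% of all pairs. All 10 had a lower log2 fold change in humanized than in WT livers. Over all pairs, 1163 of the 1620 that differed went the same way. After adjustment 4 passed (5.63%, against 4.98% of all pairs), shares that lie near or below those of all pairs. The 4 were ATP5MF (difference of log2 fold changes -0.80 ± 0.15, adjusted p = 0.00268), COX8A (-1.04 ± 0.20, adjusted p = 0.00371), COX6B1 (-1.04 ± 0.20, adjusted p = 0.00414) and NDUFS5 (-0.65 ± 0.18, adjusted p = 0.0424). Within humanized livers alone none of these 4 passed adjustment (limma adjusted p of 0.111 to 0.154). The 5th smallest p was that of ATP5MC3 (-0.47 ± 0.14, adjusted p = 0.0549). The WT values beside them were 0.13 for Atp5j2, 0.11 for Cox8a, 0.08 for Cox6b1, -0.04 for Ndufs5 and 0.12 for Atp5g3. Cox8a ranged from 579 to 742 TPM in LacZ and from 618 to 813 TPM in HuR KD livers, and Cox6b1 from 634 to 800 TPM and from 669 to 789 TPM. Without the 4 livers that stood apart 11 pairs of members passed the adjusted threshold (15.5%), where 16.4% of all pairs did. By complex, 3 of 32 pairs differed in I, 0 of 4 in II, 0 of 8 in III, 3 of 11 in IV and 4 of 16 in V, at the unadjusted threshold.

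**Figure D5:**
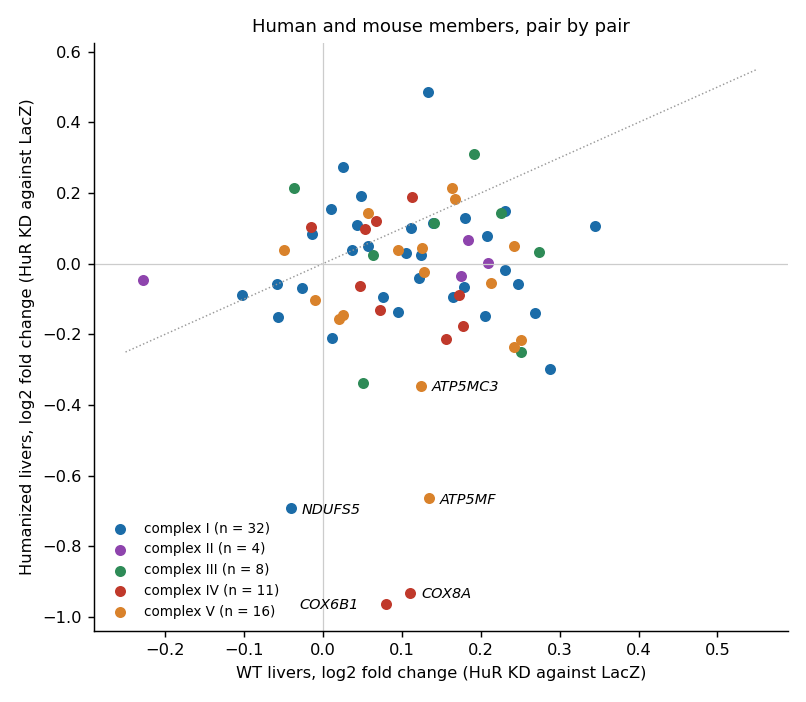
Log2 fold change (HuR KD against LacZ) of each of the 71 pairs in WT livers (horizontal) and humanized livers (vertical), coloured by complex, with a dotted line where both are equal. COX8A, COX6B1, ATP5MF and NDUFS5 lie between -0.66 and -0.96 in humanized livers and between -0.04 and 0.13 in WT livers.

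Genes that build or regulate the chain were read from the same fits. Of 72 such human genes tested, 1 was higher and 5 were lower (8.33%, against 11.5% of all genes), and of 70 mouse genes 16 were higher and 2 lower (25.7%, against 16% of all genes), with medians of -0.02 and 0.08. The 5 lower human genes became 3 without HuR KD liver 1, HuR KD liver 2 or LacZ liver 1, and 8 without LacZ liver 2. In humanized livers cytochrome c itself (CYCS), the carrier between complexes III and IV, read 30.0 to 43.1 TPM in LacZ and 23.4 to 29.1 TPM in HuR KD livers with no overlap (-0.50 ± 0.15, adjusted p = 0.234). TMEM242, a factor for ATP synthase assembly, stood at 5.65 to 7.47 TPM against 3.95 to 4.17 TPM (-0.58 ± 0.13, adjusted p = 0.113). The complex I assembly factor NDUFAF2 stood at 5.25 to 19.1 TPM against 1.38 to 5.80 TPM, with overlapping groups (-1.39 ± 0.40, adjusted p = 0.221). In WT livers Timmdc1, a complex I assembly factor, fell from 32.9 to 40.9 TPM to 18.4 to 27.7 TPM in every knockdown liver (-0.52 ± 0.09, adjusted p = 0.0319). Coa4, for complex IV assembly, rose from 5.16 to 6.54 TPM to 6.76 to 9.51 TPM (0.36 ± 0.08, adjusted p = 0.0628). Nrf1, the factor whose core element is printed above, rose from a median of 3.84 to 4.92 TPM (0.31 ± 0.09, adjusted p = 0.107). The 9 members with the core in their promoter had a median log2 fold change of 0.19, from -0.01 to 0.29. Of these 9, only Ndufa8 and Uqcrc1 were called. The other 56 with a promoter entry had a median of 0.11, from -0.75 to 0.35. Medians with and without the ETS core were 0.11 and 0.12, and with and without the YY1 core 0.13 and 0.11. These splits are a description with no test. In humanized livers none of the 13 mRNAs of mitochondrial DNA was called, from the least abundant, MT-ND6, at 13.6 ± 5.52 against 13.7 ± 4.63 TPM to the most abundant, MT-CO3, at 12169 ± 2329 against 12541 ± 1703 TPM, and their median log2 fold change was -0.05. In the WT table all 12 such genes found were listed at 0, so nuclear and mitochondrial mRNAs could be set side by side in humanized livers only.

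The mouse members shared short mRNAs. In the GENCODE M21 transcript chosen for each gene, 79 members had a median length of 763 bases against 2839 for 11312 tested protein-coding genes, and a median 3′ untranslated region of 155 bases against 916. A stretch of AUUUA, the core of AU-rich elements that HuR is known to bind, was present in that region in 39.2% of members and 64.6% of all. A stretch of UUUUU was present in 26.6% and 73.1%. These shares were not set for length, and a shorter region has fewer places for a match, so they do not show that members are poor in such stretches. Atp5g2 counts as holding none, as its chosen transcript had 0 bases of 3′ untranslated region. Sdhc had the most AUUUA matches, 7, beside 19 UUUUU matches, overlaps included, in a region of 2636 bases. Ndufa5 had none of either in 57 bases. Members of both directions held many or none. Atp5g1, which rose, had 3 AUUUA and 27 UUUUU matches in 4252 bases, and Cox7a1, which fell, had none of either in 63 bases. Whether matches and direction went together was not tested. The 80 mouse members tested lay on 19 chromosomes, at most 6 on any one.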

How the data were processed

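RNA-seq of 20 livers was read from 2 tables of TPM, which the authors deposited with 1 column for each liver. Per the labels and the study's methods, total RNA was sequenced strand-specifically, trimmed reads went through HISAT2, with both genomes in one index for humanized livers, and featureCounts, and the submitters' processing notes name GRCh38 and mm10. The gene lengths behind the TPM are not stated. Members and gene lists were chosen with earlier results of these data known.

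TPM of genes with a mean of at least 1 in a set were tested as log2(TPM + 1) with limma 3.58.1 (R 4.3.3; eBayes with trend), HuR KD against LacZ within a table, over all genes, with Benjamini-Hochberg adjustment. The threshold for a call was an unadjusted p of 0.05, which the study also used, with the adjusted p beside it. Fold changes of low genes are understated by the added 1. The 2 tables were normalized separately, so levels were compared within a table, apart from the correlation of human and mouse levels. Human and mouse genes of the same symbol (ATP5 genes and NDUFB1 by their synonyms) were paired. The difference of effects was 1 contrast over the 4 groups, with 1 spread per gene taken over both sets. Labels do not say more of replicates than that they are separate samples, and p-values measure the spread between them. Named genes were HuR; up to 2 members a direction, complex and set with the smallest p; SDHA to SDHD; the 5 pairs with the smallest p; the highest and lowest member of each complex; tissue isoforms; members under the filter; and 3 related genes a set. Same-numbered livers did not pair: their deviations correlated between -0.249 and 0.137 (humanized) and between -0.142 and 0.206 (WT). Whole reads were recovered from the steps of the TPM for all (100%) of 18702 human and 25110 mouse genes with values in at least 4 libraries, and voom on these reads called 1326 of 12385 human and 3017 of 15077 mouse genes. Tests were checked on simulated data. Promoters came from RefSeq (GRCm38.p6) and transcripts from GENCODE M21. Alternatives were other pseudocounts, filters, scalings, weights, a replicate block, voom on recovered reads and leaving out each liver. Leaving out the 4 livers that stood apart, and a term for 2 of them, were chosen after seeing the data.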

Additional observations from a re-analysis of the deposited data

Results flagged for a closer look

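In 114 groups of livers examined for a single liver far from the others, 15 held one, and chance gives about 1 in 20. In WT LacZ liver 2, the shallowest library, 5 values stood apart from the other 5 livers. Cox4i1 was 579.8 TPM (others up to 465.5), Cox6a1 995.1 TPM (up to 761.5), Cox7a1 9.508 TPM (up to 3.835), Cox8a 742.3 TPM (up to 633.8) and Uqcrc2 183.4 TPM (others from 220.1). In WT HuR KD liver 6, 7 values did. Uqcrc1 was 206 TPM (others up to 141.8), Cox4i1 763.9 TPM (up to 510.3), Cox6a1 1004 TPM (up to 773.3), Cox7b 552.2 TPM (up to 355.6), Atp5a1 1222 TPM (up to 915.8), Atp5l 34.72 TPM (up to 22.44) and Timmdc1 18.43 TPM (others from 24.95). Sdhc was 98.46 TPM in WT LacZ liver 4 (others from 106.7). In humanized livers COX6B1 was 88.07 TPM in LacZ liver 2 (others up to 78.57), and TMEM242 was 3.951 TPM in HuR KD liver 3 (others from 4.142). The cause was not tested.

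The effect of knockdown differed between humanized and WT livers, by the adjusted p of the difference itself, for ATP5MF (-0.7986 on the log2 scale), COX8A (-1.042), COX6B1 (-1.043) and NDUFS5 (-0.6523). Species, host strain, age, read length and shRNA sequence cannot be told apart in this difference. Its p rests on 1 spread per gene taken over both sets.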

How the results depend on the processing

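In humanized livers no member was higher, but 1 was with liver weights, a mean TPM of at least 5, scaling to nuclear protein-coding genes, log2(TPM + 0.1), voom, a term for the 2 alike livers, or without those 2 livers, and 2 were with median-of-ratios or quantile scaling. The 5 that were lower became 0 after adjustment, and 2 members passed adjustment with the term for the 2 alike livers. In WT livers the 22 that rose became 1 after adjustment, 12 with median-of-ratios scaling and 36 with liver weights, and the 3 that fell became 0 after adjustment and 1 at a mean TPM of at least 5. That filter removes Ndufa4l2 (mean 1.25 TPM) and Cox7a1 (mean 2.97 TPM). Same-numbered livers were not paired samples, and with the replicate block 13 WT members rose. Related human genes that were higher (1) became 0 after adjustment, with the replicate block and without the eBayes trend, and 2 with protein-coding scaling. Related human genes that were lower (5) became 0 after adjustment, 3 with voom, 8 with the term for the 2 alike livers and 10 without them. Related mouse genes that were higher (16) became 0 after adjustment, 28 with liver weights and 25 without the 2 livers that stood apart, and those that were lower (2) became 1 after adjustment and 1 with the replicate block. Of the 10 pairs that differed, 4 passed adjustment, and 11 passed it without the 4 livers. The complex III median in humanized livers was 0.19 with voom. The cause was not tested, except that by construction adjustment is stricter and a higher filter removes low genes.

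Leaving out 1 liver at a time gave 0 to 1 higher and 4 to 6 lower human members, 14 to 26 higher and 2 to 3 lower mouse members, 0 to 1 higher and 3 to 8 lower related human genes, 12 to 19 higher and 1 to 3 lower related mouse genes, and a complex III median of 0.0293 to 0.18 in humanized livers. Alternatives gene by gene were read for the named genes only. Of 25 called genes named, none changed direction in these settings and 8 lost the call in at least 1 setting (64 values in all). Signs turned for 12 uncalled genes. SDHC was 0.0176 with median-of-ratios, 0.0349 with protein-coding, 0.0213 with quantile scaling and 0.0420 with voom. SDHD was 0.0428, 0.0576, 0.0037 and 0.0290 in the same order, and ATP5MG was 0.0174, 0.0323 and 0.0252 under the 3 scalings. UQCRC2 was 0.23 with voom, COX4I1 0.00152 and COX6A2 0.0140 with protein-coding scaling. Without the 2 alike livers NDUFA1 was -0.0378, SDHA -0.0306 and COX6A2 0.0121. Ndufs5 was 0.0495 with liver weights, 0.0229 with voom and 0.0594 without the 2 WT livers. Leaving out 1 liver, ranges that crossed 0 were -0.0916 to 0.14 for NDUFA1, -0.14 to 0.0653 for SDHC, -0.59 to 0.14 for UQCRC2, -0.29 to 0.0602 for COX6A2, -0.10 to 0.11 for SDHA, -0.0963 to 0.0259 for SDHD, -0.0253 to 0.0868 for NDUFA4, -0.0220 to 0.14 for Cox6a1, -0.00679 to 0.19 for Cox6b2 and -0.0885 to 0.0144 for Ndufs5. Depth limits the least expressed members most, and WT LacZ liver 2 (1423985 reads) most among the libraries.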
